A study of Rattus norvegicus with 3 samples.

Results

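The 10 genes described here encode enzymes that make, modify or break down the sphingolipids of myelin. They were chosen by symbol (UGT8, FA2H, GAL3ST1, CERS2, GALC, SGMS1, SPTLC1, SPTLC2, ELOVL1 and DEGS1), and all 10 were found among the 12771 entries of the deposited table. RNA came from the supernatant that was left after thoracic spinal cord of female Sprague Dawley rats, 3 months old, was dissociated with cold active protease and the cells were pelleted. The No-SCI rats had a laminectomy at T9 without a contusion, and the SCI rats had the same laminectomy followed by a contusion, so both groups carry the surgery. Tissue just rostral to that level was taken 24 h later. By the labels there are 2 libraries of No-SCI rats and 1 of an SCI rat, although the study states that 2 animals were used per condition. The comparison asks how RNA in this fraction, prepared to enrich for axonal RNA, differed after injury.

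Each gene has 1 value per group, the authors' own FPKM estimate, in which fragments are scaled to transcript length and library size. The table holds neither read counts nor values of individual libraries, so the number of reads behind each value and the spread between animals are unknown (the study states a sequencing depth per sample), and no SD, n or test accompanies any value below. The median of all entries was 17.2 FPKM in No-SCI against 15.6 FPKM after SCI on the deposited scale. Ratios are given as log2 of SCI over No-SCI, and their median over all entries was -0.12. A gene is described as past the fold where it was at least 2-fold lower or higher after SCI.

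Myelin is built largely of lipid, and galactosylceramide and its sulfated form, sulfatide, are among its characteristic components. The pathway begins in the endoplasmic reticulum, where serine palmitoyltransferase joins serine to a fatty acid, and ceramide synthases then add a further acyl chain that in myelin is often very long and 2-hydroxylated. Dihydroceramide desaturase completes ceramide, which receives galactose from UGT8 or a phosphocholine head group from sphingomyelin synthase. In the central nervous system oligodendrocytes make most of these lipids, while several of the early enzymes are used by nearly all cells.

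After SCI, UGT8 was the only one of the 10 enzymes past the fold. It stood at 44.0 FPKM in No-SCI against 8.58 FPKM after SCI, which is 5.12-fold lower. In bulk RNA of this kind, a smaller share of oligodendrocyte material in the supernatant and less UGT8 RNA in each cell process cannot be told apart. The other 9 enzymes had log2 ratios between -0.82 and 0.81, and those of the largest size were SPTLC1 and FA2H on the lower side and GAL3ST1 on the higher side. In all, 7 of the 10 were lower after SCI by any amount, beside 56.3% of all entries, and 3 were higher, beside 43.7%. One member in 10 (10%) was at least 2-fold lower, beside 12.1% of all entries, and 0 were at least 2-fold higher, beside 7.96%. At a 1.5-fold minimum 4 members were lower, beside 26.3% of entries, and 1 was higher, beside 16.9%. The same 5 members made up the counts at a 1.3-fold minimum, where the shares of all entries were 35.7% lower and 24.6% higher. The median log2 ratio of the 10 was -0.33, and without UGT8 it was -0.31. At 2-fold the share of the members was thus near that of the whole table.

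**Figure D1:**
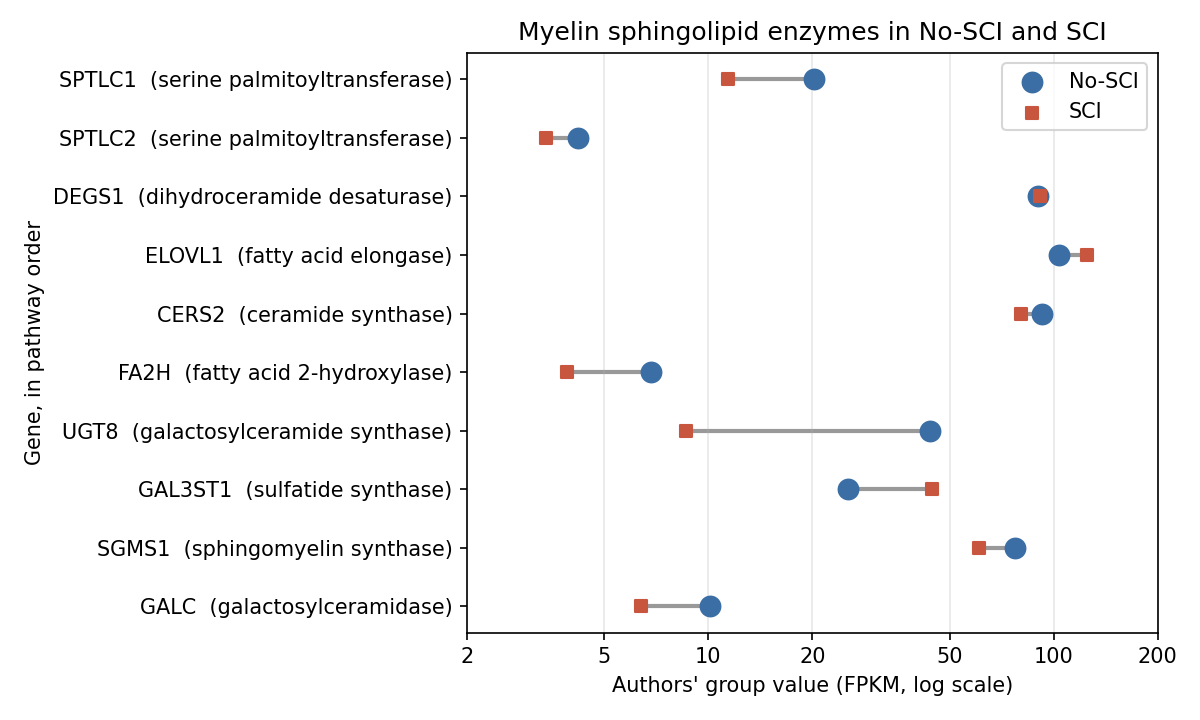
Authors' group values of the 10 enzymes in FPKM on a log axis, with genes in the order of the pathway, circles for No-SCI, squares for SCI and a line joining both. UGT8 has the longest line, from 44.0 to 8.58 FPKM, and GAL3ST1, ELOVL1 and, by a small margin, DEGS1 have their SCI value to the right.

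The first enzymes of the pathway differed widely in level, and none of them was past the fold. SPTLC1 and SPTLC2 are the long chain base subunits that together form the core of serine palmitoyltransferase, the rate-limiting step of sphingolipid synthesis. SPTLC1 had 20.2 FPKM in No-SCI against 11.4 FPKM after SCI, a log2 ratio of -0.82. SPTLC2 had 4.20 FPKM in No-SCI against 3.38 FPKM after SCI, a log2 ratio of -0.31, and was the least abundant member in both groups. SPTLC1 was thus 4.81 times as abundant as its partner in No-SCI and 3.38 times after SCI. DEGS1, the dihydroceramide desaturase that introduces the double bond of ceramide, was nearly level, with 90.2 FPKM in No-SCI against 91.6 FPKM after SCI.

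The enzymes that set the length and hydroxylation of the acyl chain did not share a direction. ELOVL1 elongates saturated fatty acids to the very long chains used by CERS2, and it was the most abundant member in both groups, with 104 FPKM in No-SCI against 125 FPKM after SCI (log2 ratio 0.26). CERS2, the ceramide synthase that prefers those chains, had 92.5 FPKM in No-SCI against 80.4 FPKM after SCI (log2 ratio -0.20). FA2H, which places the 2-hydroxyl group on the fatty acid of myelin galactolipids, was far lower in level, with 6.80 FPKM in No-SCI against 3.91 FPKM after SCI (log2 ratio -0.80). ELOVL1 and CERS2 both lay above percentile 80 of all entries in each group, whereas FA2H lay at percentile 27.5 in No-SCI and 17.7 after SCI.

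The enzymes that add a head group to ceramide, or sulfate to galactosylceramide, separated most. UGT8 transfers galactose to ceramide and so commits it to galactosylceramide. Its level went from percentile 71.1 of all entries in No-SCI to percentile 35.3 after SCI, and from place 5 to place 7 among the 10 enzymes. The log2 ratio of -2.36 was at percentile 0.579 of the ratios of all 12771 entries. GAL3ST1, the sulfotransferase that turns galactosylceramide into sulfatide, was on the other side, with 25.4 FPKM in No-SCI against 44.6 FPKM after SCI, a log2 ratio of 0.81 at percentile 89.2. The ratio of GAL3ST1 to UGT8 was accordingly 0.577 in the No-SCI group and 5.19 in the SCI group, a log2 difference of 3.17. SGMS1, which makes sphingomyelin from ceramide in the Golgi, had 77.4 FPKM in No-SCI against 60.6 FPKM after SCI, a log2 ratio of -0.35. UGT8 was 0.568 times as abundant as SGMS1 in No-SCI and 0.142 times after SCI.

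GALC, the lysosomal galactosylceramidase that is lost in Krabbe disease, removes the galactose that UGT8 adds. It had 10.1 FPKM in No-SCI against 6.40 FPKM after SCI, a log2 ratio of -0.66. The level of UGT8 was 4.35 times that of GALC in No-SCI and 1.34 times after SCI. ARSA, the arylsulfatase that removes the sulfate added by GAL3ST1, had 6.68 FPKM in No-SCI against 3.99 FPKM after SCI (log2 ratio -0.74), near that of GALC.

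**Figure D2:**
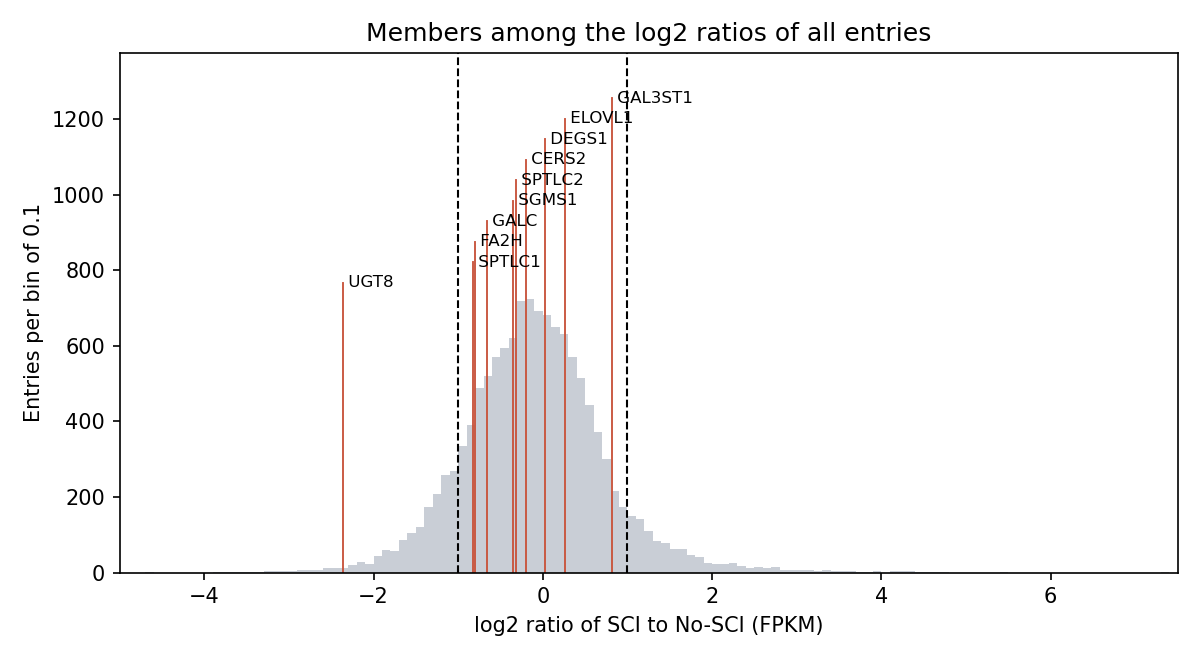
Histogram of log2 ratios (SCI over No-SCI) over all 12771 entries, in bins of 0.1, with a red line at each enzyme (line height only separates the names) and dashed lines at 2-fold. UGT8 lies in the left tail at -2.36 and the other 9 lie between the dashed lines.

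In order of level, the No-SCI group ran from ELOVL1 through CERS2, DEGS1, SGMS1, UGT8, GAL3ST1, SPTLC1, GALC and FA2H to SPTLC2, a span of 24.7-fold. After SCI the order was ELOVL1, DEGS1, CERS2, SGMS1, GAL3ST1, SPTLC1, UGT8, GALC, FA2H and SPTLC2, a span of 36.9-fold. The summed level of the 10 was 475 FPKM in No-SCI against 436 FPKM after SCI. Without a spread it cannot be said which neighbours in either order differ. In at least 1 group, the values of 5 members (GAL3ST1, GALC, SGMS1, SPTLC1 and ELOVL1) carry 7 significant digits. That is 1 more than a Cuffdiff estimate usually has, and 58.6% of all entries have more digits than usual in at least 1 group. Whether estimates of several transcripts had been added up for these entries was not tested.

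Set beside related enzymes, the members were the leading forms in all but one family compared. CERS2 held 59.4% of the summed FPKM of the 5 listed ceramide synthases in No-SCI and 62.6% after SCI. ELOVL1 held 49.9% of that of the 6 listed ELOVL elongases in No-SCI and 65.6% after SCI, with ELOVL2 and ELOVL7 both past the fold on the lower side. UGT8 exceeded UGCG, which adds glucose in place of galactose to ceramide, 19.4 times in No-SCI and 4.81 times after SCI, and UGCG itself was at 2.26 FPKM and 1.79 FPKM. SGMS1 was 12.5 times as abundant as SGMS2 in No-SCI and 11.2 times after SCI. SAMD8, a related enzyme of the endoplasmic reticulum that makes ceramide phosphoethanolamine, was more abundant than SGMS1, with 147 FPKM in No-SCI against 87.6 FPKM after SCI.

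**Figure D3:**
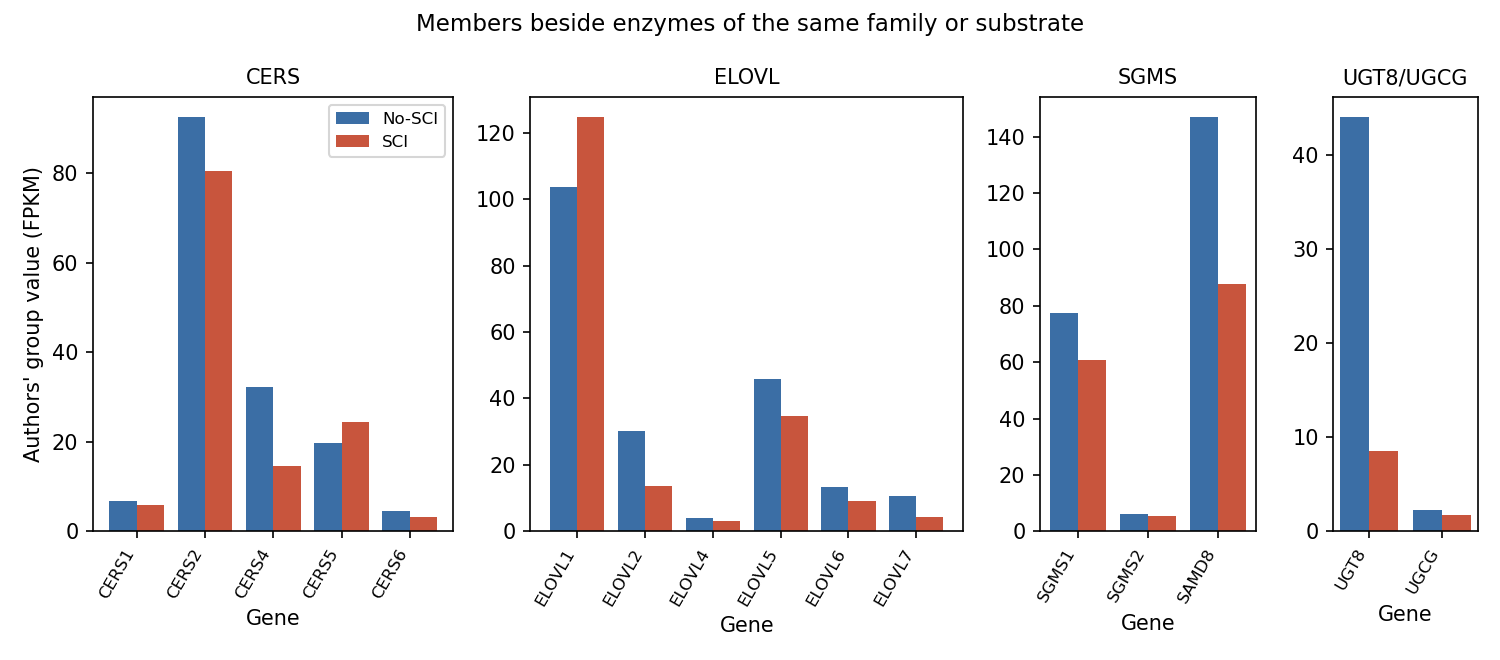
Bars of the authors' group values in FPKM, from 0, for the listed ceramide synthases, ELOVL elongases, sphingomyelin synthase family and both ceramide sugar transferases, blue for No-SCI and red for SCI, each panel with its own axis. CERS2, ELOVL1 and UGT8 are the tallest of their panels in both groups, and SAMD8 is taller than SGMS1.

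The wider sphingolipid pathway was described with 6 lists of 71 symbols, of which 62 were listed. Of these, 46 were lower and 16 higher after SCI by any amount, 7 were at least 2-fold lower (11.3%) and 2, ST3GAL3 and SPHK1, at least 2-fold higher (3.23%). Of all entries, 56.3% were lower and 43.7% higher by any amount, and 12.1% and 7.96% were at least 2-fold lower and higher. The counts of each list below stand beside these same shares of all entries. The median log2 ratio of the 62 genes was -0.27. One of the 62, S1PR3, had a lower log2 ratio than UGT8.

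Among 10 other listed genes of ceramide synthesis, 7 were lower and 3 higher, with a median log2 ratio of -0.23. CERS4, a ceramide synthase for somewhat shorter chains, was past the fold, with 32.2 FPKM in No-SCI against 14.5 FPKM after SCI. SPTSSA, a small subunit that activates serine palmitoyltransferase, was the most abundant of the list, with 286 FPKM in No-SCI against 160 FPKM after SCI (log2 ratio -0.84, close to that of SPTLC1). ORMDL3, an inhibitor of the same enzyme, had 65.8 and 57.6 FPKM. Of the 9 listed genes of very long chain fatty acid elongation, 8 were lower, and the median log2 ratio was -0.55. ELOVL2, an elongase of polyunsaturated fatty acids, was at 30.3 FPKM in No-SCI against 13.6 FPKM after SCI, and ELOVL7 was at 10.6 and 4.45 FPKM. TECR, the reductase of the last step of each elongation cycle, was the most abundant with 89.9 and 63.1 FPKM, and ELOVL5 followed with 45.7 and 34.8 FPKM. ELOVL1, whose log2 ratio was 0.26, thus differed in sign from 8 of these 9 genes.

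Of 9 listed genes of sphingomyelin metabolism and lipid transfer, 7 were lower and 0 were past the fold in either direction, with a median log2 ratio of -0.21. GLTP, the glycolipid transfer protein, was the most abundant, with 401 FPKM in No-SCI against 271 FPKM after SCI. The 10 listed genes of glucosylceramide and ganglioside synthesis had 6 lower and 4 higher, with a median log2 ratio of -0.20. ST3GAL5, which makes the ganglioside GM3, led this list with 435 FPKM in No-SCI against 471 FPKM after SCI, B4GALT6, a lactosylceramide synthase, had 13.4 and 8.90 FPKM, and ST3GAL3, another sialyltransferase, was past the fold on the higher side with 5.80 and 12.3 FPKM. Of the 15 listed breakdown genes 12 were lower, with a median log2 ratio of -0.43. PSAP, the precursor of the saposins that present sphingolipids to lysosomal enzymes such as GALC, had 586 FPKM in No-SCI against 274 FPKM after SCI. ASAH2, a neutral ceramidase, had 42.0 and 12.1 FPKM, and SUMF1, which activates sulfatases, had 108 and 71.2 FPKM.

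Because UGT8, FA2H and GAL3ST1 are used above all by myelinating cells, the proteins of oligodendrocytes and myelin were placed beside them. Of 18 listed genes of this kind, 15 were lower by any amount, beside 56.3% of all entries. At least 2-fold lower were 12 (66.7%), beside 12.1% of all entries. The median log2 ratio of the 18 was -1.37. Of the 3 that were higher, picked out after their values were seen, NKX6-2, a transcription factor, was past the fold with 31.2 and 68.3 FPKM, and ASPA, an enzyme of acetylaspartate breakdown, had 238 and 319 FPKM. UGT8 lay 0.98 below that median on the log2 scale, and the other 9 enzymes lay above it, by between 0.55 for SPTLC1 and 2.19 for GAL3ST1. One of the 18, OPALIN, had a lower log2 ratio than UGT8, at -2.65. MOBP, the most abundant of the list, had a log2 ratio of -0.68. MBP and ENPP2 have no entry in the table.

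The markers of other cells that hold these enzymes also differed between the groups. Schwann cells, the myelinating cells of peripheral nerve, use UGT8, FA2H and GAL3ST1 as well. Of their 7 listed markers 6 were higher after SCI, beside 43.7% of all entries. The summed level of these 7 was 130 FPKM in No-SCI against 197 FPKM after SCI. Among their defining genes PRX had 1.96 FPKM in No-SCI against 7.55 FPKM after SCI, and NCMAP is listed at 1, the lowest value in the table, in No-SCI and at 4.21 FPKM after SCI. FOXD3 and CDH19 have no entry, and PMP2 and PMP22, the most abundant of the list, had 63.9 and 56.6 FPKM in No-SCI against 63.8 and 85.9 FPKM after SCI. The part of Schwann cell RNA in the higher value of GAL3ST1 was not tested.

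**Figure D4:**
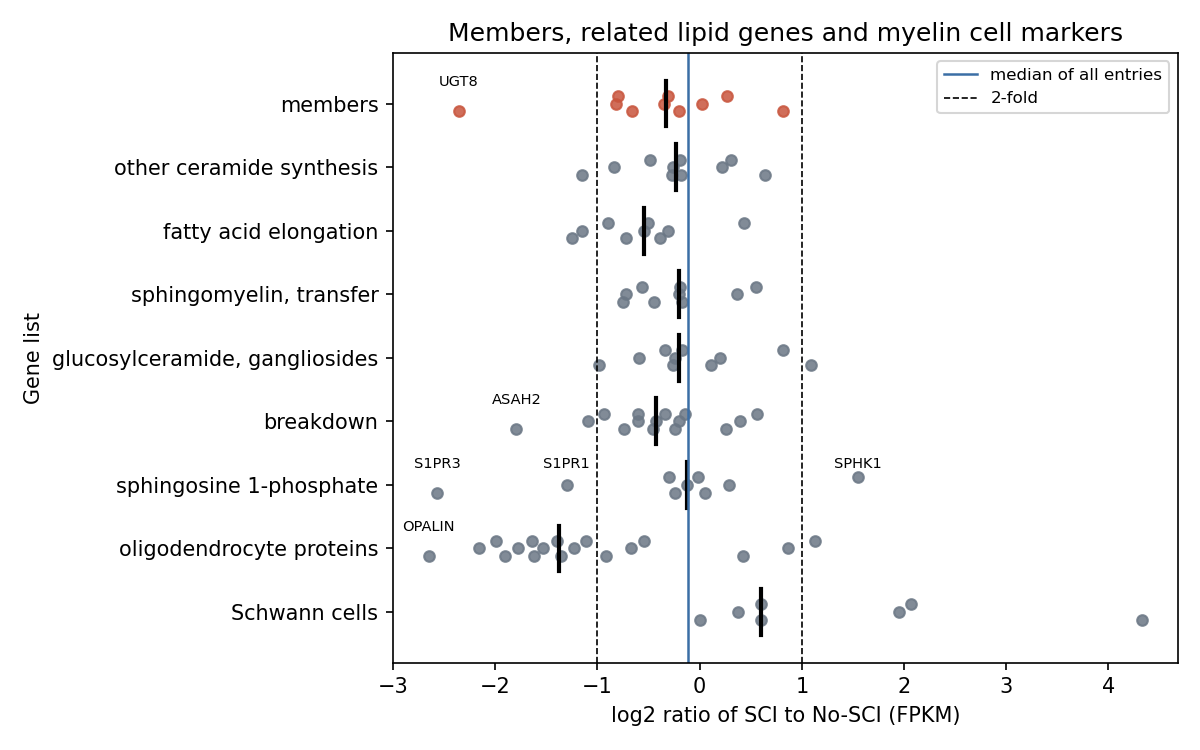
Log2 ratio (SCI over No-SCI) of each listed gene (points, spread vertically for clarity) in the 10 enzymes, 6 lists of related lipid genes and 2 lists of myelinating cell markers, with black bars at list medians, a blue line at the median of all entries (-0.12) and dashed lines at 2-fold. The oligodendrocyte list has its median at -1.37, and the enzymes have theirs at -0.33 with UGT8 apart.

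Of the remaining marker lists, all 10 listed genes of meningeal fibroblasts were higher after SCI, beside 43.7% of all entries. At least 2-fold higher were 9 of them, beside 7.96% of all entries. Their summed level was 67.2 FPKM in No-SCI against 837 FPKM after SCI. All 7 listed astrocyte markers were lower, beside 56.3% of all entries, and 6 were at least 2-fold lower, beside 12.1%. Their summed levels were 14048 and 8922 FPKM, nearly all from NDRG2 and GLUL. GFAP, AQP4, SLC1A3, S100B and ALDOC have no entry. Of the 9 listed genes of oligodendrocyte precursors 6 were lower and 3 higher, and 3 were at least 2-fold lower, beside 12.1% of all entries. Their median log2 ratio was -0.28. Summed levels of the precursor genes were 321 and 180 FPKM, led by BCAN with 212 and 82.1 FPKM and OLIG1 with 49.1 and 52.5 FPKM. Microglia and macrophage markers were split, 6 lower and 6 higher, with summed levels of 1133 and 1589 FPKM, led by AIF1 and LYZ2. Of 10 listed neuronal genes 8 were lower, beside 56.3% of all entries, and 4 were at least 2-fold lower, beside 12.1%. Their median log2 ratio was -0.63. Summed levels of the neuronal genes were 1958 and 1816 FPKM, led by GAP43 with 1275 and 1406 FPKM and THY1 with 297 and 136 FPKM. Of 8 listed endothelial genes 5 were higher, with summed levels of 52.0 and 73.9 FPKM, led by CLDN5 and EGFL7. Blood cell genes had summed levels of 545 and 609 FPKM over 5 listed genes, led by HBB and S100A8. Whether these shifts in makeup bear on the levels of the enzymes used by nearly all cells, ELOVL1, DEGS1, CERS2, SGMS1, SPTLC1 and SPTLC2, was not tested.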

How the data were processed

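Total RNA libraries, depleted of ribosomal RNA and strand-specific, were made from the supernatant of 2 No-SCI samples and 1 SCI sample, as the labels give them. Per the labels and the study's methods, the authors reduced all libraries to an equal number of reads, mapped these with STAR 2.5.4b against rn6, and ran Cuffdiff 1.3.0 with upper quartile normalization. The authors' deposited FPKM values are 1 pooled estimate per group for each entry. The table also holds p-values, q-values and fold changes of the authors' own comparison, which were not used. The columns were assigned by the group named in them. Levels are given as deposited, and no value lies below 1 (18 No-SCI and 37 SCI values are exactly 1). Log2 ratios (SCI over No-SCI) were taken without a pseudocount, with percentiles over the 12771 entries. Of each of 13 repeated symbols, none of them a member, the more abundant entry was kept. The study states a sequencing depth per sample, but the reads behind each value and the spread between libraries are not in the table used here, so the precision of a value is unknown.

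The members and lists were chosen with earlier results of these data known. The genes named are the members, the 2 most abundant genes of each list, those of lipid lists past the fold, and the 5 nearest to UGT8. ARSA, UGCG, SGMS2, OPALIN, PRX, NCMAP, NKX6-2 and ASPA were chosen after their values were seen. Some genes of the lists are counted but not reported singly here. All 10 members matched a rat RefSeq symbol of the GRCr8 reference, which was used for names alone. Alternatives were pseudocounts of 1 and 0.1, subtraction of 1, 3 scalings, folds of 1.5 and 1.3, a mean of at least 5 FPKM, list means and the smaller of repeated entries. The code that counts genes past a fold was tested on a copy of the No-SCI values with some entries changed by a known fold. Without noise in that copy, the test checks the counting and says nothing of the precision of a call. Python 3.11.15, numpy 2.4.6, pandas 2.3.3 and matplotlib 3.10.9 were used.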

Additional observations from a re-analysis of the deposited data

How the results depend on the processing

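Each member was tried under 7 alternatives. Pseudocounts of 1 and 0.1, subtraction of 1 and the smaller of repeated entries could not change the sign of a log2 ratio. They keep the order of both values, and no member is a repeated symbol. Under median centring, upper quartile scaling and total scaling no member changed sign either. Their shifts were smaller than the ratio of the lower member closest to no difference, CERS2 at -0.20, so kept signs say nothing of precision. Over the 7 alternatives the log2 ratio of UGT8 ran from -2.50 to -2.23. Median centring moved all ratios up by 0.12, upper quartile scaling by 0.10 and total scaling by 0.05. The number of members past the fold depended on the fold alone. With a 1.5-fold or a 1.3-fold minimum, 4 members were past it on the lower side and 1 on the higher side, in place of 1 and 0, beside 35.7% and 24.6% of all entries at 1.3-fold. A value was taken to have moved where it changed by over 1.5-fold, since no spread between replicates is known, and by that measure the median of the oligodendrocyte and myelin proteins did not move under any alternative. The medians of the Schwann cell, meningeal fibroblast and blood cell lists moved under some, and that of the blood cell list also changed sign. No paired analysis was possible because the table has 1 pooled value per group, and for the same reason no replicate could be left out. Depth limits cannot be given without counts.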

Other observations

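The lipid mediator sphingosine 1-phosphate is made from the backbone that the breakdown of ceramide releases, and its genes held the widest range of all the lipid lists. Of 9 listed genes 6 were lower and 3 higher, with a median log2 ratio of -0.12. SPHK1, a kinase that makes the mediator, had 36.8 FPKM in No-SCI against 108 FPKM after SCI, a log2 ratio of 1.55. SPHK2, the other sphingosine kinase, had 79.5 and 67.3 FPKM. Among the receptors, S1PR3 had 40.1 FPKM in No-SCI against 6.76 FPKM after SCI (log2 ratio -2.57), and S1PR1 had 17.7 and 7.19 FPKM (log2 ratio -1.30). S1PR5, the receptor known from oligodendrocytes, was the most abundant gene of the list and nearly level, with 299 FPKM in No-SCI against 310 FPKM after SCI.

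The 5 named genes nearest to UGT8 by the distance of their log2 FPKM over the 2 group values were DLG2, SLC25A34, CUX2, DNAAF9 and JAKMIP3, at distances from 0.098 to 0.34. DLG2, the nearest, had 42.2 FPKM in No-SCI against 9.06 FPKM after SCI. With only 2 values per gene such likeness is a description of level and ratio.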
